A study of Mus musculus with 7 samples.

Results

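The genes described are the 5 kainate receptor subunits, Grik1 to Grik5, and the auxiliary subunits Neto1 and Neto2. They were chosen by name, by matching the Ensembl identifiers of the gene table to these symbols, and make up 7 of its 22248 genes. All 7 passed the low-count filter that left 14654 genes for testing. The messenger RNA came from synaptoneurosomes, a brain fraction of nerve endings with attached postsynaptic compartments, isolated from the hippocampus of wild-type C57Bl/6J female mice. One group of 4 libraries (replicates B, D, E and F) came from mice that received AM6545, an antagonist of the CB1 cannabinoid receptor with limited entry into the brain, by sub-chronic administration. The other group of 3 libraries (replicates B, D and E) came from mice given vehicle. The dose, the duration, the age and the number of mice behind each library are not given in the sources used here, and nothing there says that the libraries came from separate animals, so the p-values measure only the spread between these samples.

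Kainate receptors are tetrameric glutamate-gated cation channels. The subunits GluK1, GluK2 and GluK3 (genes Grik1 to Grik3) can form channels on their own, whereas the high-affinity subunits GluK4 and GluK5 (Grik4 and Grik5) need a partner of the first kind. Neto1 and Neto2 are single-pass membrane proteins with CUB domains that bind the receptors and slow their gating. In the hippocampus these receptors are best known at the mossy fibre synapses onto CA3 pyramidal cells, on both sides of the synapse, and on interneurons.

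Library totals lay between 19174649 and 25894733 estimated counts. On the first principal component of log2 CPM (CPM are counts per library size after TMM scaling), which held 39.9% of the variance, vehicle B lay at 36.1 and the other libraries between -19.0 and 10.03. Mitochondrially encoded genes took 9.83% of CPM in vehicle B and 5.07 to 6.66% in the other 6 libraries, and the part of this in the Grik5 values was not tested. The slope of log2 level on GC content, per 10 percentage points, was negative in all 4 AM6545 libraries (-0.12 to -0.03) and positive in all 3 vehicle libraries (0.05 to 0.13). Markers of other cells were present in every library: all 8 oligodendrocyte markers were detected, with a summed level of 14607 to 17084 CPM in AM6545 and 14855 to 18937 CPM in vehicle, as were all 6 astrocyte markers. Of 8 microglia markers 5 were lower at an unadjusted p under 0.05 (summed level 733 to 775 CPM in AM6545 and 750 to 1007 CPM in vehicle). Of 11 interneuron markers 3 were lower (1471 to 1518 and 1466 to 1707 CPM). So were 2 of 5 markers of pyramidal and granule neurons, 2 of 5 of CA1 pyramidal cells and 1 of 8 of oligodendrocytes. Of all genes, 8.7% were lower at that p. In no marker list was a gene higher at that p. The libraries thus held RNA of glial cells as well, and in such bulk samples fewer cells of a type and less RNA per cell cannot be told apart.

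No kainate receptor or Neto gene passed an adjusted p of 0.05 in the comparison of AM6545 with vehicle. Grik5 was the only one of the 7 whose groups did not overlap, with lower values in AM6545. Of the difference of -35.3 CPM between the group means, -31.5 CPM lay in a single transcript (ENSMUST00000205328.2), which the annotation classes as a target of nonsense-mediated decay and which is called the decay transcript of Grik5 here. Without vehicle B the gene differed by -22.2 CPM, the decay transcript by -10.7 CPM and the coding transcript by -10.5 CPM. Within Grik2 the counts were divided differently between a transcript with a short and one with a long last exon in the 2 groups of libraries, without overlap. How many of all genes show such a division was not computed. The main test was edgeR's quasi-likelihood test with Benjamini-Hochberg adjustment over all genes, and it called 0 of the 7 genes, where 0.00682% of all genes tested were called. At an unadjusted p under 0.05, 2 of the 7 were lower (Grik3 and Grik5; 8.7% of all genes) and 0 of the 7 were higher (5.86% of all genes). The groups did not overlap for 1 of the 7 in the lower direction (7.19% of all genes) and for 0 of the 7 in the higher direction (6.63% of all genes).

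**Figure D1:**
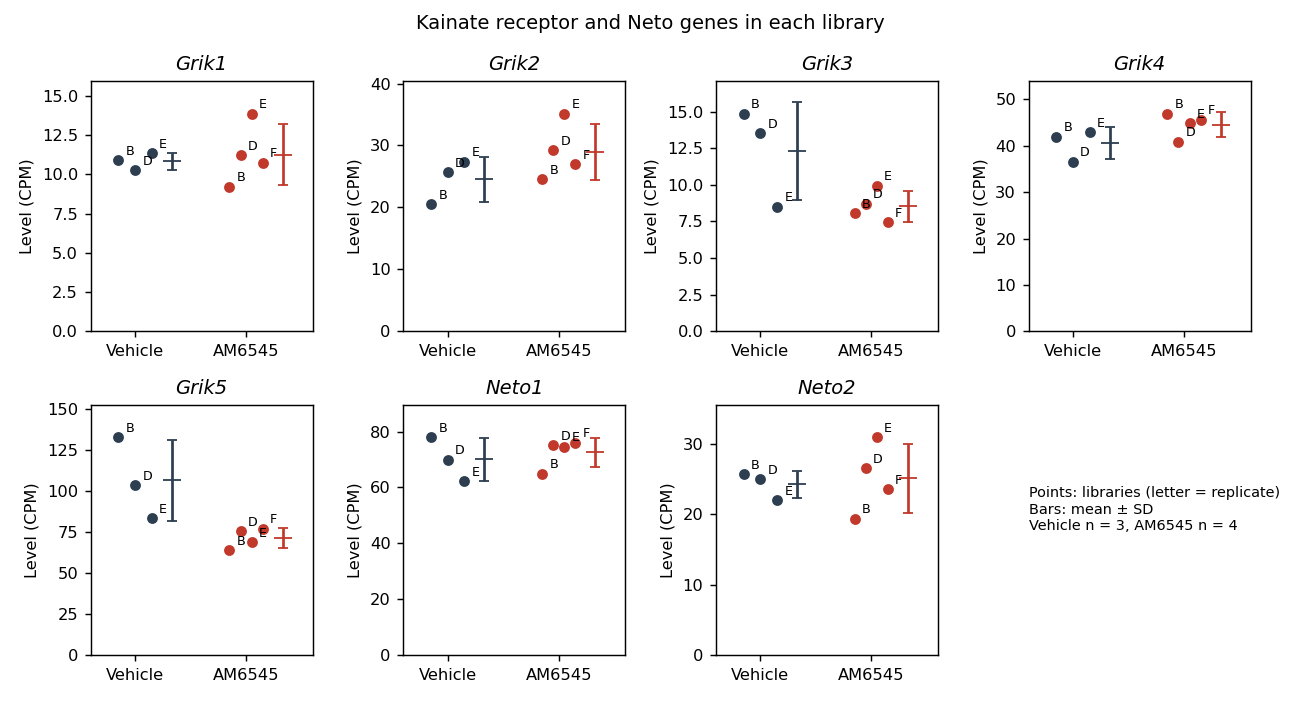
Level of each gene in CPM (vertical axis from 0) in the 3 vehicle and 4 AM6545 libraries; points are libraries with their replicate letter and bars are mean ± SD. The Grik5 values of AM6545 lie between 64.0 and 77.0 CPM, below all vehicle values (83.6 to 132.9 CPM), whereas the groups overlap for the other 6 genes.

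Levels of different genes were set side by side per transcript length, as transcript counts over transcript length scaled to the same total in each library (a TPM-like value). On this scale Grik5 had the highest level of the 7, 43.7 ± 9.82 (SD, n = 7). Grik4, its fellow high-affinity subunit, followed at 22.4 ± 2.77 (SD, n = 7) and the auxiliary subunit Neto1 at 17.6 ± 1.68 (SD, n = 7). Both high-affinity subunits thus stood above every subunit that can form a channel alone. Grik2 had a level per length of 11.7 ± 2.87 (SD, n = 7), Neto2 one of 9.67 ± 1.85 (SD, n = 7) and Grik1 one of 6.31 ± 1.02 (SD, n = 7). Grik3 was lowest at 2.13 ± 0.524 (SD, n = 7). Each gene was above the next in 7 of 7 libraries, except Grik2 over Neto2, which held in 6 of 7. Over the libraries the ranges of neighbours overlapped for all but Grik5 with Grik4 and Grik1 with Grik3. With the length of the longest annotated transcript in place of the transcripts' own lengths, Neto1 (20.02) stood above Grik4 (17.0), and Grik2 had a level of 6.76.

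**Figure D2:**
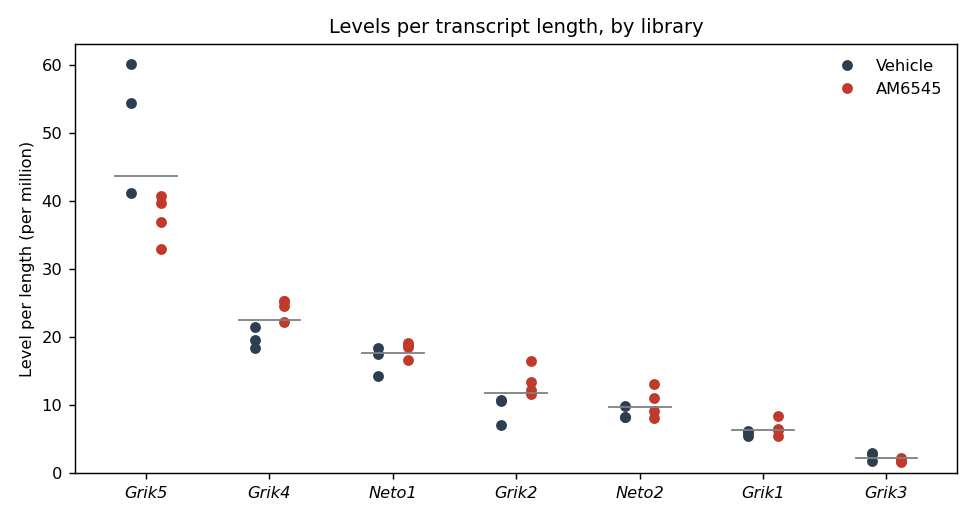
Level per transcript length (vertical axis, transcript counts over length, scaled to a common total per library) of the 7 genes, ordered by mean; points are libraries and the grey line is the mean of all 7. Grik5 lies above Grik4 in every library, and Grik3 lies below the other 6 genes in every library.

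Among all tested genes the level per length of Grik5 stood at the 74.8th percentile and that of Grik3 at the 18.2th. Summed over Grik1 to Grik5, the level per length was 14.1% ± 2.94 (SD, n = 7) of that of the 4 AMPA receptor subunits and 33.3% ± 2.15 (SD, n = 7) of that of the NMDA receptor subunits. The summed Grik level was 83.9 ± 5.13 (SD, n = 4) after AM6545, against 89.6 ± 7.13 (SD, n = 3) after vehicle, and the groups overlapped.

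Grik1 (chr16:87895900-88290265, minus strand; all positions in build GRCm38) encodes GluK1, a subunit best known in hippocampal interneurons. Its level was 9.21, 11.2, 13.9 and 10.7 CPM in AM6545 B, D, E and F, and 10.9, 10.3 and 11.4 CPM in vehicle B, D and E. The vehicle values lay inside the AM6545 range. The log2 fold change of Grik1, AM6545 over vehicle, was 0.05 ± 0.14 (SE), with an adjusted p of 0.878 by edgeR's quasi-likelihood test.

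Grik2 (chr10:49094833-49788766, minus strand) encodes GluK2, the principal channel-forming subunit of kainate receptors in the hippocampus. Its level was 24.5, 29.2, 35.1 and 26.9 CPM in AM6545 B, D, E and F, and 20.5, 25.6 and 27.4 CPM in vehicle B, D and E. The highest value was in AM6545 E and the lowest in vehicle B, with overlap between them. AM6545 over vehicle, the log2 difference of Grik2 was 0.24 ± 0.14 (SE; unadjusted p 0.111, adjusted p 0.440 by edgeR's quasi-likelihood test). With the GC and length correction, which removes from every library its dependence on these 2 gene properties, it was 0.10.

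Grik3 (chr4:125490700-125714173, plus strand) encodes GluK3, a channel-forming subunit of low glutamate affinity. Its level was 8.05, 8.70, 9.93 and 7.44 CPM in AM6545 B, D, E and F, and 14.9, 13.5 and 8.50 CPM in vehicle B, D and E. Vehicle B and D lay above all AM6545 libraries, and vehicle E lay among them. The log2 difference of Grik3 was -0.54 ± 0.18 (SE; unadjusted p 0.0113, adjusted p 0.247 by edgeR's quasi-likelihood test). Leaving out vehicle E moved it to -0.74 (adjusted p 0.0239, past the threshold, as for 6.38% of all genes), leaving out vehicle B to -0.38 (adjusted p 0.785), and the GC and length correction to -0.32 (adjusted p 0.740).

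Grik4 (chr9:42518135-42944493, minus strand) encodes GluK4, a high-affinity subunit of mossy fibre synapses. Its level was 46.9, 40.9, 44.9 and 45.7 CPM in AM6545 B, D, E and F, and 42.0, 36.6 and 43.0 CPM in vehicle B, D and E. The values spanned a narrow range and overlapped, and the log2 difference of Grik4 was 0.14 ± 0.10 (SE; adjusted p 0.527 by edgeR's quasi-likelihood test).

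Grik5 encodes GluK5, the high-affinity subunit that commonly assembles with GluK2. Its level was 64.0, 75.7, 68.8 and 77.0 CPM in AM6545 B, D, E and F, and 132.9, 103.7 and 83.6 CPM in vehicle B, D and E. All AM6545 values lay below all vehicle values, and the vehicle libraries were spread more widely, with vehicle B highest. The means were 71.4 ± 6.08 CPM (SD, n = 4) and 106.7 ± 24.8 CPM (SD, n = 3), and the log2 difference of Grik5 was -0.58 ± 0.14 (SE; unadjusted p 0.00134, adjusted p 0.199 by edgeR's quasi-likelihood test). DESeq2 gave -0.58 with an adjusted p of 0.0213 and limma-voom -0.49 with an adjusted p of 0.0319, both past the threshold, which 1.69% of all genes passed with DESeq2 and 2.69% with limma-voom. Leaving out vehicle E gave -0.73 (adjusted p 0.0181), where 6.38% of all genes passed, and leaving out vehicle B gave -0.39 (adjusted p 0.644). Grik5 had the highest GC content of the 7, 62.3%, and after the GC and length correction its log2 fold change was -0.46 (adjusted p 0.729).

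The levels of both auxiliary subunits overlapped between the groups. Neto1 (chr18:86394952-86506718, plus strand), which also associates with NMDA receptors, had a level of 64.9, 75.0, 74.6 and 76.0 CPM in AM6545 B, D, E and F, and of 77.9, 69.9 and 62.3 CPM in vehicle B, D and E. Its log2 fold change was 0.05 ± 0.11 (SE; adjusted p 0.840 by edgeR's quasi-likelihood test). Neto2 (chr8:85636588-85700924, minus strand), which also binds the potassium-chloride cotransporter KCC2, had a level of 19.4, 26.6, 31.0 and 23.6 CPM in AM6545 B, D, E and F, and of 25.7, 25.03 and 22.0 CPM in vehicle B, D and E. Its log2 fold change was 0.05 ± 0.15 (SE; adjusted p 0.891 by edgeR's quasi-likelihood test). For both genes the vehicle values fell within or across the AM6545 range. The sign of the Grik1, Neto1 and Neto2 values turned under some settings, with the values in the closing section.

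**Figure D3:**
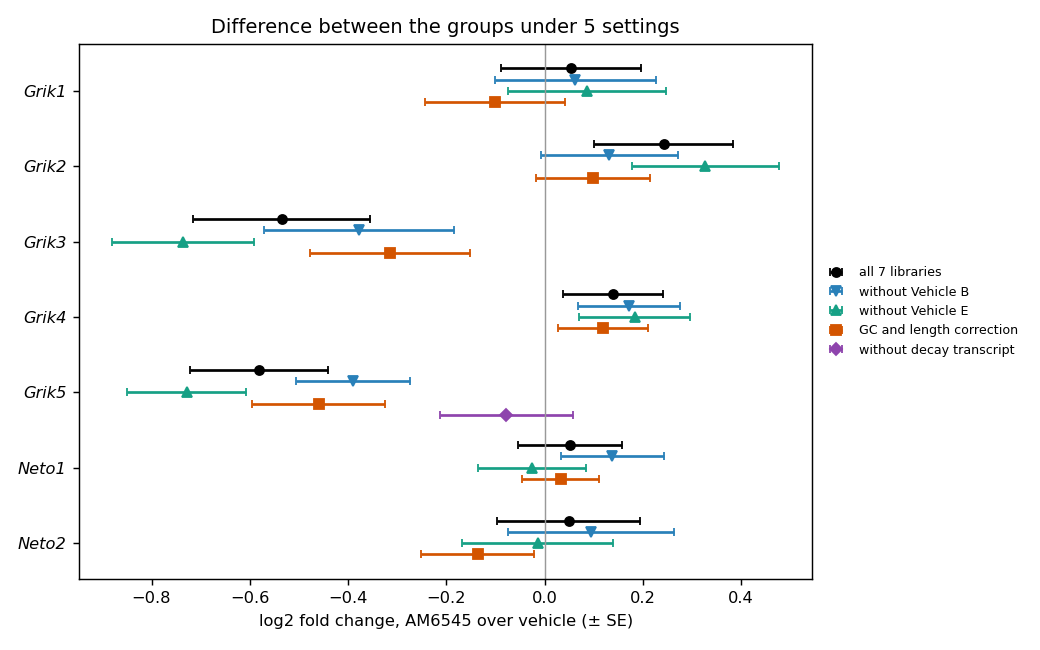
Log2 fold change (horizontal axis, AM6545 over vehicle, ± SE) of the 7 genes with all 7 libraries, without vehicle B, without vehicle E, after GC and length correction and, for Grik5 alone, with the counts of the decay transcript taken away. Grik5 lies at -0.58 with all libraries and at -0.08 without the counts of the decay transcript.

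The position of Grik5 in build GRCm38 is chr7:25009849-25072346 on the minus strand. Its coding transcript (ENSMUST00000003468.10) has 20 exons and 979 codons. The decay transcript also has 20 exons, but 1 of its exons, upstream of the stop, runs on by 25 bases (chr7:25067985-25068009), its reading frame closes after 130 codons in exon 5, and 15 exon junctions follow the stop. In GENCODE M21, from which these structures come, these 25 bases are the only ones of the decay transcript that the coding one lacks. The release used for the counts is not given, and its sequences can deviate. In M21 the coding transcript holds 191 others that the decay transcript does not, so the division of counts between them rests on short stretches. Which of these bases set the division was not tested. The junction is shown in both transcripts because it holds all the bases found only in the decay transcript; capitals mark the 25 extra bases.
Grik5 decay transcript: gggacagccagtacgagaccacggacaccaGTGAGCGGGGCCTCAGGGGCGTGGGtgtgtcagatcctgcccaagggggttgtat
Grik5 coding transcript: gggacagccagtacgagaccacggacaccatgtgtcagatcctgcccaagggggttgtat

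The decay transcript had 0, 51.8, 97.4 and 0 estimated counts in AM6545 B, D, E and F, and 1849, 380 and 175 in vehicle B, D and E. All vehicle libraries were higher than all AM6545 libraries, and vehicle B was far above vehicle D and E. As a share of Grik5 counts this was 0, 2.61, 6.66 and 0% in AM6545 and 56.0, 14.8 and 11.3% in vehicle. Since few bases tell the transcripts apart, the 2 values of 0 say only that the estimate is listed at 0, and no upper limit is given for them. The share of the decay transcript differed by -25.04 percentage points with a two-sided exact permutation p of 0.0286, the smallest that 35 splits allow, and of 0.0857 after adjustment over the 12 transcript shares compared. The 12 shares are not independent, since a lower share of 1 transcript raises the others of its gene. Without vehicle B the difference in share was -10.7 percentage points. The transcript test of edgeR gave the decay transcript an unadjusted p of 0.0249 and an adjusted p of 0.561.

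The coding transcript of Grik5 overlapped between the groups. Its estimated counts were 1429, 1850, 1320 and 1973 in AM6545 B, D, E and F, and 1371, 2119 and 1319 in vehicle B, D and E. In CPM the means were 67.7 ± 6.61 (SD, n = 4) and 70.6 ± 15.4 (SD, n = 3), with overlap, and the log2 fold change was -0.06 ± 0.16 (SE; adjusted p 0.941 by edgeR's quasi-likelihood test). With the counts of the decay transcript taken from the Grik5 total, an alternative chosen after seeing the data, the log2 fold change of Grik5 was -0.08 (adjusted p 0.805). Without vehicle B that of the coding transcript was -0.21. The other decay transcript of Grik5 (ENSMUST00000206134.2), which held 2.85% of Grik5 counts on average and was named after its values were seen, stood at 2.08 ± 0.784 CPM (SD, n = 4) after AM6545, against 2.90 ± 0.336 CPM (SD, n = 3) after vehicle, with overlap.

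**Figure D4:**
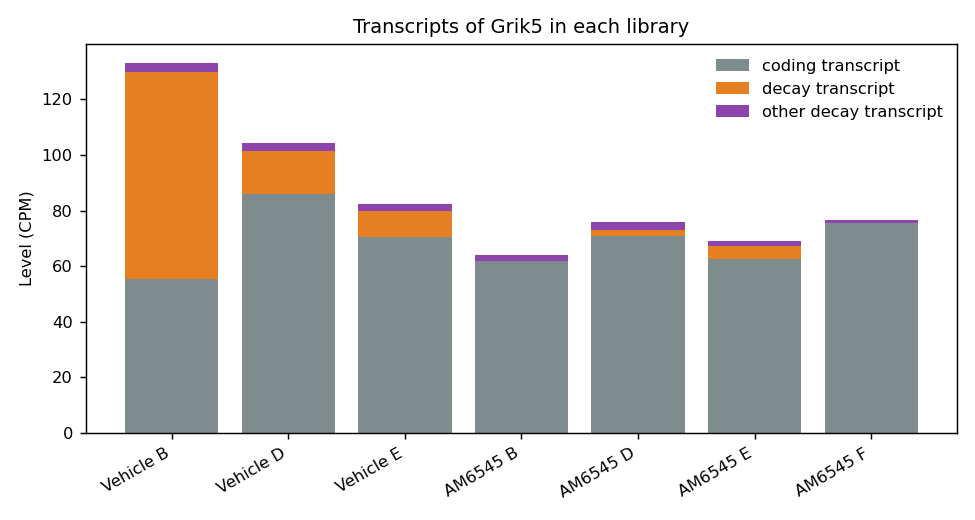
Level in CPM (vertical axis from 0) of the 3 tested transcripts of Grik5, stacked for each library. The decay transcript reaches 74.6 CPM in vehicle B and at most 4.60 CPM in any AM6545 library, whereas the coding transcript lies between 55.3 and 86.0 CPM in all libraries.

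The proportions among the subunits were taken with and without the decay transcript, the second chosen after seeing the data. Grik4 and Grik5 together held 75.6, 74.0, 69.7 and 76.5% of the kainate receptor mRNA per length in AM6545 B, D, E and F, and 83.8, 79.2 and 77.1% in vehicle B, D and E, without overlap. Without the decay transcript the share was 73.6% ± 3.43 (SD, n = 4) and 75.8% ± 1.33 (SD, n = 3), and the groups overlapped. The ratio of Grik5 to Grik4 per length was 1.55 ± 0.214 (SD, n = 4) after AM6545, against 2.65 ± 0.682 (SD, n = 3) after vehicle, and without the decay transcript it was 1.51 ± 0.216 (SD, n = 4) and 1.81 ± 0.486 (SD, n = 3), with overlap. The ratio of summed Neto to summed Grik level was 0.341 ± 0.0175 (SD, n = 4) after AM6545, against 0.285 ± 0.0144 (SD, n = 3) after vehicle, without overlap. Without the decay transcript it was 0.344 ± 0.0222 (SD, n = 4) against 0.354 ± 0.0723 (SD, n = 3), with overlap. Taking that transcript away moved this ratio in vehicle B from 0.275, the lowest of the 7 libraries, to 0.435, the highest. Vehicle D and E stood at 0.331 and 0.296 without it. The ratio of Grik5 to Grik4 in vehicle B moved from 3.26 to 1.40. Neto1 exceeded Neto2 by a ratio of 1.82 ± 0.317 (SD, n = 4) and 1.91 ± 0.196 (SD, n = 3), with overlap. These ratios are descriptions and carry no test.

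Of the 40 transcripts listed for the 7 genes, 33 were detected and 19 tested, and 0 passed an adjusted p of 0.05 (0.0177% of all transcripts). At an unadjusted p under 0.05 there were 4 (8.39% of all transcripts), 1 each of Grik2, Grik3, Grik4 and Grik5.

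The 2 most counted transcripts of Grik2 have the same number of codons, 908, and differ in their ends. The last exon has 1430 bases in the short-ended transcript (ENSMUST00000105484.10) and 6440 in the long-ended one (ENSMUST00000218823.2). The long-ended one also starts further upstream (chr10:49788766 against chr10:49783259) and has 17 exons against 16. Which of these differences set the shares was not tested. The long-ended transcript has 5435 bases that the short-ended one lacks and the short-ended one has 0 of its own against it, so its share rests on the estimation and on no base unique to it. The short-ended transcript held 62.5, 65.2, 64.7 and 63.1% of Grik2 counts in AM6545 B, D, E and F, and 53.3, 55.6 and 53.6% in vehicle B, D and E. The long-ended transcript held 19.6, 23.6, 20.97 and 23.0% in AM6545 and 38.3, 32.8 and 30.8% in vehicle. The shorter form was thus higher and the longer form lower in every AM6545 library than in any vehicle library. Of the 12 transcript shares compared, those of the coding and the decay transcript of Grik5 did not overlap either, and the rest overlapped. How often such shares do not overlap over all genes was not computed. The short-ended share differed by 9.69 percentage points and the long-ended share by -12.1, each with a two-sided exact permutation p of 0.0286 and 0.0857 after adjustment over the 12 shares. Shares within 1 gene depend on each other, so these are not 2 separate results. Leaving out 1 library at a time kept the first between 9.25 and 10.4 and the second between -13.7 and -9.96 percentage points. As levels, the short-ended transcript of Grik2 stood at 18.6 ± 3.29 CPM (SD, n = 4) against 13.3 ± 2.02 CPM (SD, n = 3), a log2 difference of 0.49 ± 0.18 (SE; unadjusted p 0.0287, adjusted p 0.562 by edgeR's quasi-likelihood test). The long-ended one stood at 6.35 ± 1.14 CPM (SD, n = 4) against 8.22 ± 0.305 CPM (SD, n = 3), a log2 difference of -0.37 ± 0.18 (SE; adjusted p 0.634 by the same test). The GC content was 42.7% in the short-ended and 37.9% in the long-ended transcript.

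**Figure D5:**
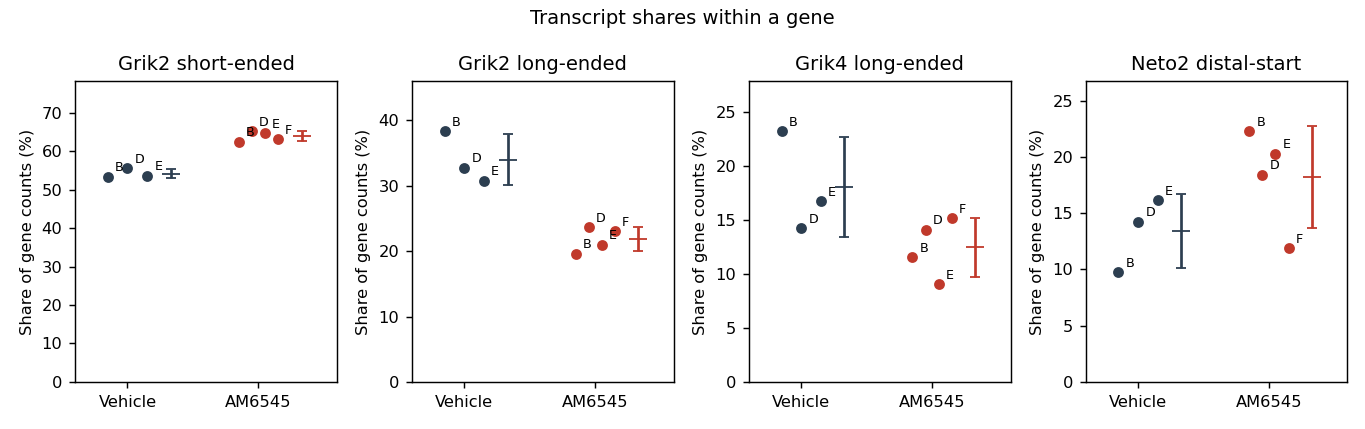
Share of a gene's counts (vertical axis from 0, in percent) held by the short-ended and long-ended transcripts of Grik2, the long-ended transcript of Grik4 and the main distal-start transcript of Neto2 in the 3 vehicle and 4 AM6545 libraries; points are libraries with their letter and bars are mean ± SD. The short-ended transcript of Grik2 lies between 62.5 and 65.2% in the AM6545 libraries and between 53.3 and 55.6% in the vehicle libraries, and the groups overlap for those of Grik4 and Neto2.

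Grik4 also has a pair in which the last exon differs, with 774 bases in the short-ended transcript (ENSMUST00000034515.7) and 3051 in the long-ended one (ENSMUST00000114865.8). Here too the long-ended one starts further upstream (chr9:42944493 against chr9:42808699) and has 21 exons against 19. It holds 2549 bases that the short-ended one lacks, and the short-ended one holds 75 that it lacks. The long-ended transcript of Grik4 held 11.5, 14.1, 9.05 and 15.2% of Grik4 counts in AM6545 B, D, E and F, and 23.2, 14.2 and 16.7% in vehicle B, D and E. Vehicle D lay within the AM6545 range, and the exact permutation p was 0.114. The short-ended transcript of Grik4 had a log2 difference of 0.24 ± 0.09 (SE; unadjusted p 0.0319, adjusted p 0.569 by edgeR's quasi-likelihood test).

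A splice variant of Grik2, known as GluK2b, carries another C-terminus, encoded by an exon of 87 bases. The transcripts with this exon held 4.55 to 11.2% of Grik2 counts over the 7 libraries, with overlap between the groups. The coding part of the exon (chr10:49105018-49105065, minus strand), which ends in the stop codon, is shown in capitals after the last 15 bases of the exon before it, because it marks this variant.
Grik2 alternative C-terminal exon: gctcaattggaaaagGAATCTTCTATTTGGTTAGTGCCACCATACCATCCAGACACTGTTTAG

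The division of Grik1 counts between transcripts varied more within the groups than between them. The transcript ENSMUST00000228188.2 held 0, 46.3, 39.2 and 57.7% of Grik1 counts in AM6545 B, D, E and F, and 54.3, 50.9 and 43.6% in vehicle B, D and E. The transcript ENSMUST00000023652.16 was at 0 in AM6545 D, AM6545 F and vehicle D and held 63.8% in AM6545 B. With only 210 to 295 estimated counts of Grik1 in a library, these shares rest on few reads. Exons that differ between the Grik1 transcripts include one of 45 bases (chr16:87955289-87955333), which held 32.0 to 61.8% of counts, and one of 87 bases near the C-terminus (chr16:87896809-87896895), which held 11.8 to 44.1%. Both are shown in capitals with 15 bases on each side.
Grik1 45-base exon: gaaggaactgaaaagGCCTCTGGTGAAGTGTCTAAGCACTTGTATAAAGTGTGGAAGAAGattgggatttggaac
Grik1 87-base exon: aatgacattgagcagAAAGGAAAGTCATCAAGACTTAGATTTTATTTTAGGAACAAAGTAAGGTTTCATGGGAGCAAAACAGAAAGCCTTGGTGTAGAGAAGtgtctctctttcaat

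Grik3 has 1 listed transcript, and the main transcript of Neto1 held 99.4% ± 0.256 (SD, n = 7) of Neto1 counts. Neto2 is annotated with 2 start sites. The transcripts from the distal one held 22.3, 26.8, 20.3 and 11.9% of Neto2 counts in AM6545 B, D, E and F, and 9.77, 14.2 and 16.2% in vehicle B, D and E, with overlap. The main distal-start transcript also has a shorter last exon, of 1685 bases against 4529 in the main proximal-start one. Whether the start or the last exon set the division of counts was not tested. The 2 promoters differ in base composition. In the 250 bases before the start (RefSeq, GRCm38.p6) the proximal one holds 0 CG dinucleotides, a number that 7.87% of 32851 promoters do not exceed, and the distal one 30, a number that 5.94% of them reach. The median promoter held 6. The 150 bases before each start are shown because they make this difference visible, with CG in capitals, for the proximal (chr8:85691010-85691159) and the distal start (chr8:85700925-85701074), both on the minus strand.
Neto2 proximal: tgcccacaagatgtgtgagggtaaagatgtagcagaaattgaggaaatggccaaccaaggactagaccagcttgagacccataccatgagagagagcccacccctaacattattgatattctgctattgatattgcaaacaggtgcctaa
Neto2 distal: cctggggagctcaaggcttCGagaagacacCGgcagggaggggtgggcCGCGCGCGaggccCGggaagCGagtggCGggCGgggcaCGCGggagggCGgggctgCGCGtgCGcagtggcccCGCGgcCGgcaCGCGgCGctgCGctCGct

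Across the 7 libraries, the log2 CPM of Grik5 followed that of Grik3 (Pearson r 0.86) and ran against that of Grik2 (r -0.68), and that of Grik1 followed Neto2 (r 0.84). These are descriptions over libraries that also share GC trend and group. Among all tested genes, those most like Grik5 over the 7 libraries were Nfic (r 0.995) and Ppt2 (r 0.995), and those most like Grik2 were Zfp182 (r 0.999) and Dlg1 (r 0.979). For Grik3 they were Tmem150a and Sh2b3 (r 0.987 and 0.986), for Grik4 Ccdc77 and Frzb (r 0.948 and 0.932), and for Grik1 Acsl5 and Cntn3 (r 0.984 and 0.979). For Neto1 they were Paip2 and Myt1 (both r 0.984), and for Neto2 Slc6a6 and Sh3gl3 (r 0.981 and 0.978). These genes were picked for the highest r out of all tested genes over only 7 libraries, so high values follow partly from the choice. Vehicle B, which stood apart on the first principal component, is among the 7. Shared regulation was not tested.

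Of 21 genes for partners that bind, move or edit kainate receptors, 20 were tested and 0 passed the adjusted p. There were 17 with a positive and 3 with a negative log2 fold change, and the median was 0.16, beside 0.01 over all genes tested (7529 of 14654 positive). Under the GC and length correction the median was 0.094. The list was chosen with earlier results of these data known, which limits its contrast with all genes. At an unadjusted p under 0.05, 2 were higher (5.86% of all genes) and 2 lower (8.7% of all genes). Adarb1, an RNA-editing enzyme that acts on kainate receptor transcripts, had 25.8 ± 1.30 CPM (SD, n = 4) after AM6545, against 34.1 ± 4.25 CPM (SD, n = 3) after vehicle, without overlap. Its log2 fold change was -0.40 (adjusted p 0.199 by edgeR's quasi-likelihood test). Dlg4, the scaffold PSD-95, named after its value was seen, had a log2 fold change of -0.52, with overlap. Cul3, a ubiquitin ligase scaffold, and Sdcbp, the PDZ protein syntenin, had log2 fold changes of 0.33 and 0.30, and of 0.10 and 0.15 under the GC and length correction. The most abundant partners were Snap25, a SNARE protein, at 3721 ± 181 CPM (SD, n = 4) against 3209 ± 63.9 CPM (SD, n = 3), without overlap (unadjusted p 0.0597 by edgeR's quasi-likelihood test), and the ATPase Nsf, with a log2 fold change of 0.33 ± 0.25 (SE) and overlap. Adarb1 passed the adjusted p with DESeq2 (0.0488), with limma-voom (0.0375) and without vehicle E (0.0247). Of all genes, 1.69% passed with DESeq2, 2.69% with limma-voom and 6.38% without vehicle E. Without vehicle E the adjusted p was also under the threshold for Dlg4 (0.0239), Nsf (0.0356), Cul3 (0.0424) and Sdcbp (0.0497). For Dlg4 and Nsf the library left out, vehicle E, lay within the AM6545 range.

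The 3 organisers of mossy fibre synapses all had negative values, as had 7125 of all 14654 genes tested. C1ql3, a secreted C1q-like protein, had 21.2 ± 0.810 CPM (SD, n = 4) after AM6545, against 26.2 ± 1.78 CPM (SD, n = 3) after vehicle, without overlap, and a log2 fold change of -0.30 (adjusted p 0.243 by edgeR's quasi-likelihood test). C1ql2 and Nrxn3 had log2 fold changes of -0.14 and -0.11. Under the GC and length correction C1ql2 stood at 0.090. C1ql2 is also among the markers of dentate granule cells, so the 2 readings are not separate. Its level was 168 to 205 CPM in AM6545 and 181 to 229 CPM in vehicle. The summed markers of dentate granule cells and of CA3 pyramidal cells, the partners of the mossy fibre synapse, overlapped between the groups, at 417 to 519 against 427 to 524 CPM and at 553 to 634 against 571 to 590 CPM. The summed markers of CA1 pyramidal cells did not overlap, at 664 to 731 CPM in AM6545 and 778 to 812 CPM in vehicle. The summed markers of pyramidal and granule neurons did not overlap either, at 3764 to 4083 CPM in AM6545 and 4114 to 4834 CPM in vehicle. All 5 markers of each of these 4 lists were detected in every library, and their part in the Grik5 and Grik2 values was not tested.

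The other ionotropic glutamate receptor genes and AMPA receptor auxiliary subunits gave 0 calls at the adjusted p with all libraries in edgeR. Cacng2 passed it with DESeq2 (0.0449), with limma-voom (0.0375) and without vehicle E (0.0214). Without vehicle E so did Grin2b (0.0416) and Cnih2 (0.0420). The shares of all genes that passed were 1.69% with DESeq2, 2.69% with limma-voom and 6.38% without vehicle E. The 4 AMPA receptor subunits had a median log2 fold change of 0.19 (0.022 under the GC and length correction and 0.088 without AM6545 E), and 0 of them passed an unadjusted p of 0.05. Gria4, Gria2 and Gria3 stood at 0.22, 0.19 and 0.18, with overlap. Gria1 stood at -0.08, narrowly without overlap (AM6545 up to 496.8 and vehicle from 497.0 CPM). Of 9 NMDA and delta receptor subunits 8 were tested, with a median of -0.19 (-0.052 under the GC and length correction and -0.063 without vehicle B), and 2 were lower at an unadjusted p under 0.05 (8.7% of all genes). These were Grin2b (-0.35, with overlap) and Grin2c (-0.28, without overlap), while Grin2d stood at -0.25 and the obligatory subunit Grin1 at -0.12. Of 12 AMPA receptor auxiliary subunits, with a median of -0.11 (-0.062 under the GC and length correction and -0.046 without vehicle B), 3 were lower at an unadjusted p under 0.05 (8.7% of all genes): Cacng2 (stargazin), Cnih2 and Shisa7, at -0.56, -0.36 and -0.33, each without overlap. The groups did not overlap for 4 of the 12, all lower in AM6545 (7.19% of all genes). The fourth was Cacng7 (-0.63), named after its value was seen, with a mean of 0.700 CPM in AM6545 and 1.08 CPM in vehicle. Under the GC and length correction Cnih2 stood at -0.048. Cnih3 stood at 0.02. The signs of C1ql2, Nrxn3, Grin2d and Cnih3 turned under some settings, given in the closing section.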

How the data were processed

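RNA-seq of 7 libraries was analysed. The deposited gene and transcript tables hold estimated counts (expected counts), made with Salmon 1.5.2 on mm10 per the submitters' processing notes; annotation release, strand setting and filters are not given in the sources used here. Among nonzero gene values 83.5% have a fraction. Counts were rounded for tests. edgeR 4.0.16 (limma 3.58.1, R 4.3.3) was fitted on all genes and, separately, all transcripts, with TMM scaling, filterByExpr and a robust quasi-likelihood fit without covariates; p-values were Benjamini-Hochberg adjusted. SEs of log2 fold changes were derived from the fold change and F. Transcript shares were compared by exact permutation over 35 splits. The code was tested on simulated data.

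Names, lengths and GC content came from GENCODE M21 (GRCm38), which held 22194 of 22248 gene and 101527 of 102392 transcript identifiers; 22181 of the gene identifiers are of a later version than there, and their lengths or sequences can deviate. Transcripts without a length held 0.718% of counts. Promoters from the RefSeq table matched 5 of the 7 genes. Exons of Neto1 and Neto2 overlap annotated genes on the opposite strand, so their counts are uncertain without the strand setting. Exons of Grik4 overlap an annotated gene on the same strand, which no strand setting separates.

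The text names the 7 genes, the 2 genes most like each, in each list the 3 with the smallest unadjusted p and the 2 with the highest CPM, and transcripts with at least 10% of a gene's counts; exceptions are marked as named after their values were seen. Members and lists were chosen with earlier results of these data known. Alternatives were DESeq2 (1.42.0), limma-voom, DESeq2 size factors, total counts, no filter, a mean of at least 50 counts, no robust estimation, a block for the replicate letter, a GC and length correction (lowess, span 0.3), both together, transcripts summed per gene, the longest transcript's length, and each library left out. The deviations of libraries with the same letter were not positively correlated (r -0.24, -0.12 and -0.16), so the letters were not taken as pairs.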

Additional observations from a re-analysis of the deposited data

Results flagged for a closer look

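In 3 of 73 values compared, 1 library stood apart from the other AM6545 libraries by Dixon's criterion, where chance gives about 1 in 20, or 3.65. Neto1 was at 64.9 CPM in AM6545 B and between 74.6 and 76.0 CPM in the other 3, with vehicle between 62.3 and 77.9 CPM. The share of Neto2 counts in transcripts not annotated as protein coding was 0.981% in AM6545 F and 0 in the other 3, with vehicle between 0 and 0.575%. Gria2, an AMPA receptor subunit, was at 1161 CPM in AM6545 E and between 937 and 975 CPM in the other 3, with vehicle between 804 and 960 CPM.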

How the results depend on the processing

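Of the 7 genes, 0 passed the adjusted p with edgeR; DESeq2 called 1 (Grik5, -0.58) and limma-voom 2 (Grik5, -0.49; Grik3, -0.60), where 1.69% and 2.69% of all genes passed. Leaving out 1 library gave 0 to 2 calls, with 2 only without vehicle E (6.38% of all genes), and moved Grik5 between -0.73 and -0.39, Grik3 between -0.74 and -0.38, Grik1 between -0.060 and 0.14, Neto1 between -0.025 and 0.14 and Neto2 between -0.065 and 0.15. With the replicate block (the shared letter as a pairing) Grik5 was at -0.60 and Grik3 at -0.44, and it changed no call. The GC and length correction turned the sign of Grik1 (-0.10), Neto2 (-0.14), C1ql2 (0.090), Grin2d (0.034) and Cnih3 (-0.0030); with the replicate block added, the values were -0.10 for Grik1, -0.13 for Neto2, 0.13 for C1ql2 and 0.078 for Grin2d. limma-voom turned C1ql2 (0.0083) and Cnih3 (-0.0090). Leaving out 1 library turned the sign of the coding transcript of Grik5 (-0.21 to 0.11), Nrxn3 (-0.18 to 0.019), Cnih3 (-0.032 to 0.056), and the share differences of the Grik1 transcripts ENSMUST00000023652.16 (-11.8 to 11.2 percentage points) and ENSMUST00000072256.13 (-7.28 to 8.80). With the longest transcript's length the levels per length were 6.76 for Grik2, 17.0 for Grik4 and 20.02 for Neto1. The causes were not tested. No transcript of the 7 genes passed under any alternative run. Low counts limit Grik1 and Grik3 most.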
